A study of Mus musculus with 4 samples.

Results

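The genes examined were 41 genes of the unfolded protein response and the integrated stress response, measured in resting CD4 T cells of mouse spleen with and without the Ifitm gene family. They were chosen by name, as the chaperones of the endoplasmic reticulum (ER), the genes of ER-associated degradation, the sensors with their transcription factors, and the targets of the transcription factor ATF4. Earlier results of these data were known at that choice, so shares of members beside those of all genes are a description and no test of an excess. Each had at least 1 probe set that the platform annotation assigns to that gene alone, so all 41 of 41 were measured, among 19938 genes in all. Where a gene had several such probe sets, the one of highest mean was used. RNA of 4 preparations was measured on Affymetrix arrays (Mouse Gene 1.0 ST), 2 from wild-type (WT) mice and 2 from IfitmF-/- mice, which lack the entire Ifitm family. Both genotypes were untreated adults of 6 to 8 weeks, and the study describes the IfitmF-/- mice as C57BL/6. Red cells were lysed in ammonium chloride and CD4 T cells were isolated by negative selection, and per the study each array carried the pooled cells of 2 mice from a separate purification. The deletion is in every cell of the animal, so an effect within CD4 T cells and an effect of their surroundings cannot be told apart. Values are log2 of the RMA intensity (the background-corrected, normalized probe set signal), and changes are IfitmF-/- minus WT on that scale.

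The unfolded protein response matches the folding capacity of the ER to the load of new secretory and membrane proteins. Its sensors are the kinase and RNase IRE1α (Ern1), whose cut allows the Xbp1 mRNA to be spliced into an active form, the kinase PERK (Eif2ak3) and the membrane-bound factor ATF6. PERK phosphorylates the translation factor eIF2α, as do HRI (Eif2ak1) and GCN2 (Eif2ak4), and this integrated stress response slows translation while favouring that of Atf4. In lymphocytes the pathway is best known from plasma cells, which need Xbp1 to secrete antibody.

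The labels were first checked. WT values of Ifitm3 were 9.26 and 8.91, and those of IfitmF-/- cells 4.61 and 4.36 (change -4.60, adjusted p = 0.00778). Xist, transcribed from the inactive X chromosome of female cells, was at 11.32 and 11.25 in WT and 4.86 and 4.43 in IfitmF-/- cells, while 3 genes of the Y chromosome (Eif2s3y, Kdm5d and Uty) spanned 3.90 to 4.81 on WT arrays and 8.32 to 9.61 on the others. The sex of the mice and their genotype cannot be told apart in any result below. CD4 T cell markers were present on all arrays, with Cd4 at 11.44 and 11.52 in WT and 11.79 and 11.71 in IfitmF-/- cells. Markers of B cells, plasma cells and blood cells were also present and differed between arrays, and their values are given beside the members.

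Most members were lower in IfitmF-/- cells, and the largest falls were among the sensors. At an adjusted p under 0.05 by limma, 8 of the 41 members fell (19.5%) and 1 rose (Derl2). Over all 19938 genes 3.61% fell and 4.96% rose, and 8.57% were called in either direction (8.43% of all 34760 probe sets). Since 40 of the 41 members lay at or above the median gene level, the share was also taken over the genes at or above that level, of which 6.79% fell and 8.99% rose. The change was below 0 for 33 of the 41 members and for 53.7% of all genes. The median change of the members was -0.36, beside -0.02 over all genes. Both IfitmF-/- arrays lay below both WT arrays for 29 of 41 members (30.8% of all genes) and above both for 4 (27.9% of all genes), and in 8 the groups overlapped. Of the members, 25 were lower and 4 higher at an unadjusted p under 0.05 (11.5% and 14.3% of all genes). Eif2ak3 and Xbp1 also met the further filter of the study's methods, a fold above 2 with arrays spanning 250 or more intensity units, which 0.853% of all genes met as lower. When only probe sets that name 1 gene were tested, 17 members were called, 15 lower and 2 higher. With each array centred on its median, 7 were lower and 2 higher. The shares of all features called under these settings are not given here, so these counts are not set against a background. Leaving out any of the 4 arrays left 1 array in a genotype and ended every call, among all probe sets as among the members.

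**Figure D1:**
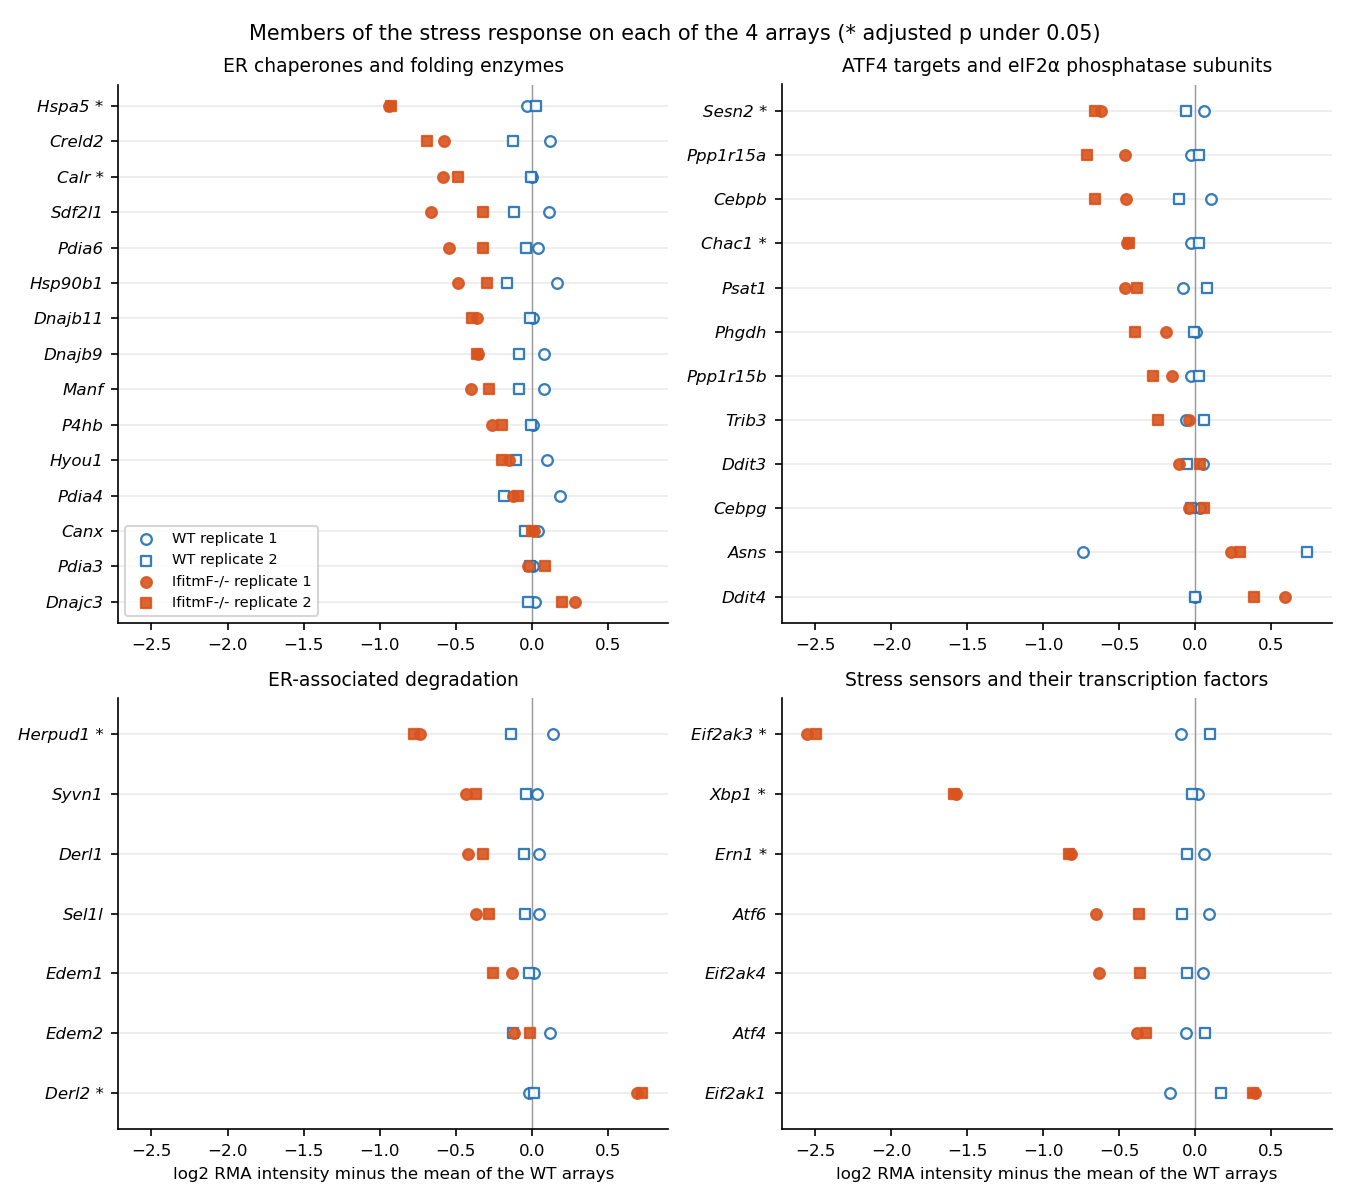
Value of each of the 41 members on each array (x axis, log2 RMA intensity minus the mean of the 2 WT arrays; open blue symbols WT, filled orange symbols IfitmF-/-, circles replicate 1 and squares replicate 2), by role, with an asterisk where the adjusted p was under 0.05. Eif2ak3 and Xbp1 lie furthest to the left, the WT arrays of Asns lie 1.47 apart, and Derl2 is the called member to the right of 0.

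Of the 7 sensors and their transcription factors, 3 fell, and all 7 parted the genotypes without overlap, 6 lower and 1 higher in IfitmF-/- cells. Eif2ak3, which encodes PERK, was at 10.60 and 10.79 in WT and at 8.14 and 8.20 in IfitmF-/- cells. The WT arrays were thus both far above the IfitmF-/- arrays, which differed from each other by 0.061. Its fall of 2.52 ± 0.10 (SE, 95% interval -2.80 to -2.25) is a 5.75-fold difference (adjusted p = 0.00938). Xbp1, the transcription factor of the IRE1α branch, was at 11.44 and 11.40 in WT and 9.85 and 9.84 in IfitmF-/- cells. The gap between the nearest arrays of the genotypes was 1.56, whereas the arrays of a genotype differed by 0.039 in WT and 0.0082 in IfitmF-/- cells. Xbp1 fell 2.99-fold (change -1.58 ± 0.077, SE; adjusted p = 0.0115). The probe set gives the total Xbp1 signal, and spliced and unspliced forms were not analysed here. Ern1, which encodes the splicing sensor IRE1α itself, was at 8.22 and 8.11 in WT and 7.35 and 7.34 in IfitmF-/- cells, again without overlap. It fell 1.77-fold (change -0.82 ± 0.085, SE; adjusted p = 0.0201). Ern1 and Xbp1 were thus both lower, each with a gap wider than its spread within a genotype.

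The remaining sensors missed the threshold. Atf6, the third ER sensor, was at 8.49 and 8.31 in WT and 7.75 and 8.03 in IfitmF-/- cells, with a change of -0.51 (95% interval -0.87 to -0.15, adjusted p = 0.102). The amino acid sensor kinase gene Eif2ak4 had a change of -0.50 (adjusted p = 0.0896) and Atf4 one of -0.35 (adjusted p = 0.0919). Atf4 was at 8.67 and 8.79 in WT and 8.34 and 8.40 in IfitmF-/- cells; its product is controlled mainly by translation, which these arrays do not measure. The haem-regulated kinase gene Eif2ak1, known from red cell precursors, was the sensor with higher values in IfitmF-/- cells, at 9.22 and 9.56 in WT and 9.78 and 9.77 in IfitmF-/- cells (change 0.39, adjusted p = 0.17). The mean log2 level of 5 erythroid markers had the same order, at 8.30 and 9.39 in WT and 10.07 and 9.94 in IfitmF-/- cells. Of these 5 genes 4 lay higher without overlap. Alas2 overlapped, at 10.85 and 9.98 in WT and 10.36 and 10.47 in IfitmF-/- cells. The part of erythroid transcripts in the Eif2ak1 values was not tested. The remaining eIF2α kinase gene, Eif2ak2 (PKR, which senses double-stranded RNA), is not a member and was named after its values were seen. It was at 7.01 and 6.94 in WT and 7.39 and 7.68 in IfitmF-/- cells (change 0.56, adjusted p = 0.0763). Over the genes of the eIF2α kinases the changes thus ran from -2.52 for Eif2ak3, the one that was called, to 0.56 for Eif2ak2.

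**Figure D2:**
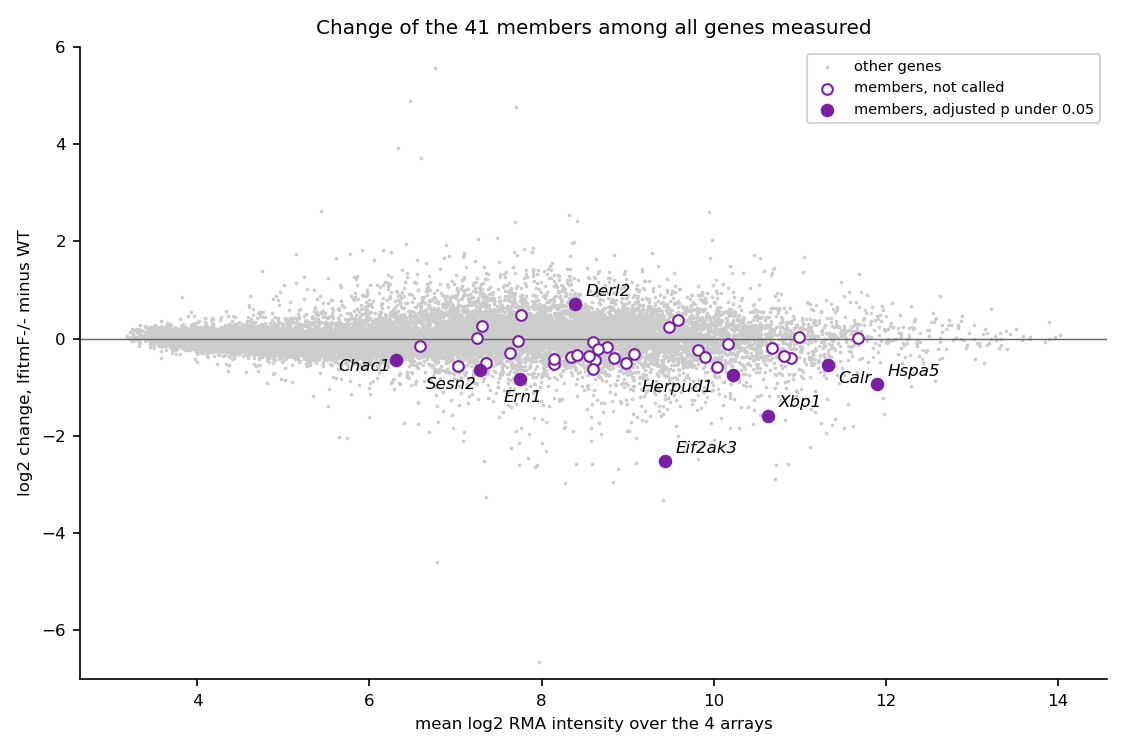
Genotype difference of each gene (y axis, log2 units, negative where IfitmF-/- cells were lower) by its average log2 level on the 4 arrays (x axis); grey points are other genes, purple circles the 41 members, filled where the adjusted p was under 0.05. Most members lie below 0, with Eif2ak3 at -2.52 and Xbp1 at -1.58.

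Among the 15 ER chaperones and folding enzymes 2 fell and 0 rose by limma (9 lower and 1 higher at an unadjusted p under 0.05), with a median change of -0.36. Hspa5, which encodes BiP, the Hsp70 chaperone of the ER lumen that holds the sensors inactive, was at 12.34 and 12.40 in WT and 11.43 and 11.44 in IfitmF-/- cells. Its arrays parted by genotype with a gap of 0.896, and it fell 1.91-fold (change -0.93 ± 0.079, SE; adjusted p = 0.0153). Calr, the calcium-binding lectin chaperone calreticulin, was at 11.60 and 11.59 in WT and 11.01 and 11.11 in IfitmF-/- cells and fell 1.45-fold (change -0.53 ± 0.083, SE; adjusted p = 0.0376). Its membrane-bound homologue calnexin (Canx) was at 11.72 and 11.63 in WT and 11.69 and 11.68 in IfitmF-/- cells. The genotypes overlapped for Canx, and its change of 0.011 had a 95% interval of -0.21 to 0.23. The difference between Calr and Canx was not tested.

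Creld2, a secreted target of the ER stress response, lay next to the threshold (adjusted p = 0.0511), at 9.04 and 8.80 in WT and 8.34 and 8.23 in IfitmF-/- cells (change -0.63). With smaller changes and no call, Dnajb11 (-0.38, adjusted p = 0.062), a co-chaperone of BiP, Pdia6 (-0.43, adjusted p = 0.0965), a disulphide isomerase, and Dnajb9 (-0.36, adjusted p = 0.101), another BiP co-chaperone, also parted the genotypes without overlap. The same held for Sdf2l1 (-0.49), Hsp90b1 (-0.39), which encodes the Hsp90 of the ER, Manf (-0.34), P4hb (-0.23) and Hyou1 (-0.17), with adjusted p values of 0.129 to 0.369. Pdia3, the disulphide isomerase that works with calreticulin and calnexin, overlapped between genotypes (change 0.034, 95% interval -0.19 to 0.26), as did Pdia4 (-0.11, interval -0.50 to 0.28), whose second probe set was also not called. Dnajc3, which encodes an inhibitor of PERK, had higher values in IfitmF-/- cells, at 9.38 and 9.33 in WT and 9.64 and 9.56 in IfitmF-/- cells (change 0.24, adjusted p = 0.161). Of the 15 chaperones 11 lay lower without overlap (30.8% of all genes), 3 overlapped and 1 lay higher without overlap (27.9% of all genes). Differences between the chaperones were not tested.

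The promoters of the members were read for the known motifs of this response, and the stretches below show which members share them. RefSeq promoters (GRCm38.p6, 250 bases before to 50 after the annotated start) were found for 36 of the 41 members. Those of Manf, Hyou1, Derl1, Atf6 and Ppp1r15b were not analysed here. The ER stress response element (ERSE, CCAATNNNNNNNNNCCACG on either strand), to which ATF6 binds with the CCAAT factor NF-Y, matched 8 of the 36 (22.2%) and 0.119% of all 32851 promoters. The shorter ERSE-II (ATTGG, any base, then CCACG) matched Herpud1 and Dnajb11, and 0.0365% of all promoters. The composite C/EBP and ATF site (CARE, TGATGCAA), which ATF4 binds, matched Chac1 and Herpud1 and 0.895% of all promoters, and the letters TGACGTGG, a core bound by XBP1, matched 0 of the 36 and 0.676% of all. These motifs were partly defined on such genes, so the matches are a description of the promoters, and a window without a match says nothing of the factor. Stretches that hold an ERSE are given 5′ to 3′ along the gene, with the fixed letters of the motif in capitals, for 7 of the 8 genes (Hsp90b1, the other one, holds 2 matches, on opposite strands). In Calr and Creld2 the motif reads on the opposite strand, so it appears as CGTGG followed by ATTGG.
Hspa5, chr2:34771840-34772089, plus strand: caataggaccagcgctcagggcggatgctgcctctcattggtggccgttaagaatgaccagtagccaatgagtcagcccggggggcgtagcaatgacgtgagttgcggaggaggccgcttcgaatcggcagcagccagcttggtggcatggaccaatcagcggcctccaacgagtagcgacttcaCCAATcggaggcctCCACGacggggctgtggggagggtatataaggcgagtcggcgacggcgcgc
Creld2, chr15:88819500-88819558, plus strand: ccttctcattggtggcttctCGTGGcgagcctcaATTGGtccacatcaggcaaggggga
Calr, chr8:84847055-84847113, minus strand: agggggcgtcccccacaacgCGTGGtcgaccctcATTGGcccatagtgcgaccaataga
Pdia6, chr12:17266471-17266529, plus strand: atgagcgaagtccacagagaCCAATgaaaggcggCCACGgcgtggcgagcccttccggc
Syvn1, chr19:6046512-6046570, plus strand: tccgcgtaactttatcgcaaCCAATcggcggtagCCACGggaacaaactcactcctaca
Canx, chr11:50325780-50325838, minus strand: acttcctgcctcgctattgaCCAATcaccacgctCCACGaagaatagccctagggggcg
Dnajc3, chr14:118937807-118937865, plus strand: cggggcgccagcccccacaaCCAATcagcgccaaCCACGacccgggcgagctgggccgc
The same motif thus stood in the promoter of Hspa5, with the largest fall of the chaperones, and in those of Canx, near 0, and Dnajc3, with higher values. Over the 8 genes with an ERSE, 2 were called lower (Hspa5 and Calr) and the other changes ran from -0.63 for Creld2 to 0.24 for Dnajc3. The 2 members that hold CARE are shown next, Herpud1 with both its CARE and its ERSE-II.
Herpud1, chr8:94386297-94386407, plus strand: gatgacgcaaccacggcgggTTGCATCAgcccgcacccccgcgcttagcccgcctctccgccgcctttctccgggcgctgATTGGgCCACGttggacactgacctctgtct
Chac1, chr2:119351029-119351076, plus strand: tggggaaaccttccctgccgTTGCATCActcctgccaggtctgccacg
In both the CARE letters read on the opposite strand, as TTGCATCA, and both genes fell.

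**Figure D3:**
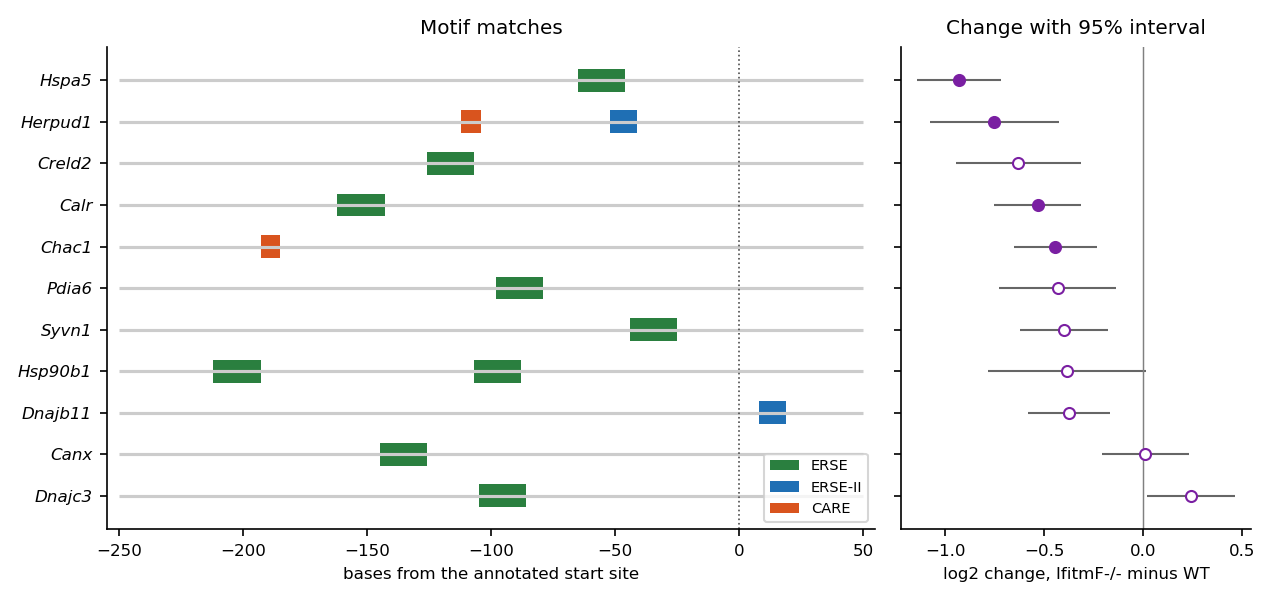
Left, matches to ERSE, ERSE-II and CARE in the promoters of the 11 members that hold one (x axis, bases from the annotated start site). Right, log2 change of the same gene, IfitmF-/- minus WT, with its 95% interval; filled circles have an adjusted p under 0.05. Changes run from -0.93 for Hspa5 to 0.24 for Dnajc3.

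ER-associated degradation, which sends misfolded proteins from the ER to the proteasome, held the member that rose. Of its 7 genes 1 fell and 1 rose. Herpud1, a stress-induced membrane protein of the degradation complex, was at 10.74 and 10.47 in WT and 9.87 and 9.83 in IfitmF-/- cells. The WT arrays differed by 0.278 and still lay above the IfitmF-/- arrays by 0.595, and Herpud1 fell 1.69-fold (change -0.75 ± 0.12, SE; adjusted p = 0.0397). Derl2, a channel protein of the same complex, was at 8.02 and 8.05 in WT and 8.73 and 8.76 in IfitmF-/- cells. It rose 1.64-fold (change 0.71 ± 0.077, SE; adjusted p = 0.0213). Its homologue Derl1 was at 10.14 and 10.04 in WT and 9.67 and 9.77 in IfitmF-/- cells, with a change of -0.37 that was not called (adjusted p = 0.0865). The ubiquitin ligase gene Syvn1 (Hrd1) was at 9.075 and 9.002 in WT and 8.605 and 8.672 in IfitmF-/- cells (change -0.40, adjusted p = 0.0638), and its partner Sel1l had a change of -0.32 (adjusted p = 0.107). For Syvn1, Sel1l and Derl1 the genotypes did not overlap. The mannosidase-like genes Edem1 (-0.19) and Edem2 (-0.063) had adjusted p values of 0.261 and 0.783, and the groups overlapped for Edem2.

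Of the 12 ATF4 targets and eIF2α phosphatase subunits 2 fell and 0 rose by limma (6 lower and 1 higher at an unadjusted p under 0.05), with a median change of -0.26. Sesn2, which encodes the leucine sensor and mTORC1 inhibitor sestrin 2, was at 7.66 and 7.54 in WT and 6.98 and 6.94 in IfitmF-/- cells and fell 1.56-fold (change -0.64 ± 0.087, SE; adjusted p = 0.0303). Chac1, which degrades glutathione, was at 6.51 and 6.56 in WT and 6.08 and 6.10 in IfitmF-/- cells (change -0.44 ± 0.078, SE; adjusted p = 0.0467). Its IfitmF-/- values lay within the 4.36 to 6.47 that the probe sets of the deleted Ifitm1, Ifitm2, Ifitm3 and Ifitm5 gave on these arrays. With the trend in eBayes, with arrays quantile-normalized again or with median-centred arrays, Chac1 was no longer called (adjusted p = 0.0592, 0.0553 and 0.055).

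The phosphatase subunit gene Ppp1r15a (GADD34), which ends the eIF2α signal, was at 10.30 and 10.36 in WT and 9.87 and 9.62 in IfitmF-/- cells. It missed the threshold (change -0.58, adjusted p = 0.0572), and the constitutive subunit Ppp1r15b had a change of -0.22 (adjusted p = 0.222). Cebpb (-0.56, adjusted p = 0.0737) and the serine synthesis genes Psat1 (-0.42, adjusted p = 0.0761) and Phgdh (-0.29, adjusted p = 0.167) lay lower without overlap. Ddit3, the death-linked factor CHOP, was at 7.79 and 7.69 in WT and 7.63 and 7.77 in IfitmF-/- cells. Its genotypes overlapped, with a change of -0.037 and a 95% interval of -0.29 to 0.22, as did those of Cebpg (interval -0.22 to 0.24) and the pseudokinase gene Trib3 (interval -0.44 to 0.15). Ddit4 (REDD1), an mTORC1 inhibitor that glucocorticoids and hypoxia also induce, was the target with higher values that did not overlap, at 7.52 and 7.51 in WT and 8.11 and 7.90 in IfitmF-/- cells. The change was 0.49 (adjusted p = 0.0646), and with median-centred arrays it was called (adjusted p = 0.049). Asns, the asparagine synthetase gene, was at 6.44 and 7.91 in WT and 7.41 and 7.46 in IfitmF-/- cells, so that the WT arrays lay on either side of both others. The interval of its change ran from -1.08 to 1.61, wider than that of any other member.

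Further genes of the pathway were taken from a list of 81, of which 74 had a probe set of their own, and 9 fell and 2 rose. The share that fell was 12.2%, and 14.9% were called in either direction, beside 3.61% and 8.57% of all genes. In the amino acid response 5 of 21 fell, namely the stress-induced factor Atf3 (-2.96), the transporter genes Slc3a2 (-1.35), Slc7a1 (-0.99) and Slc7a5 (-0.79) and the growth factor gene Vegfa (-1.23), with adjusted p values of 0.0133 to 0.0459. Slc7a5 was named after its values were seen. The tRNA synthetase genes Gars, Nars, Sars, Tars and Wars, which ATF4 also targets, had changes of -0.31 to 0.42 and were not called. In ER degradation 2 of 11 fell, Derl3 (-0.98) and the ubiquitin-conjugating enzyme gene Ube2j1 (-0.55), with adjusted p values of 0.0274 and 0.0317. Among 13 folding genes the oxidase gene Ero1lb fell by 0.76 and the reductase gene Dnajc10 rose by 0.77 (adjusted p = 0.039 and 0.0209). Among 15 genes of translocation and transport the channel gene Sec61a1 fell by 0.46 and the signal peptidase gene Spcs1 rose by 0.44 (adjusted p = 0.0464 and 0.0481). Of 14 genes that regulate the sensors 0 were called by limma, with 3 lower and 3 higher at an unadjusted p under 0.05. The median change of the 74 genes was -0.12, beside -0.36 for the 41 members and -0.02 over all genes.

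Transcripts of other cell types also differed between arrays, in directions that varied by cell type, and are given with the members. In a bulk preparation fewer cells of a type and less RNA per cell cannot be told apart. Plasma cells express Xbp1 and the ER chaperones strongly, and all 6 plasma cell markers lay lower in IfitmF-/- cells without overlap. Over all genes 30.8% lay lower without overlap and 27.9% higher. The summed linear intensity of the plasma cell markers was 4798 and 3259 in WT and 2127 and 2059 in IfitmF-/- cells. Jchain, the joining chain of secreted antibody, was at 11.6028 and 10.9999 in WT and 10.65 and 10.49 in IfitmF-/- cells (change -0.73, adjusted p = 0.135). Irf4, which activated T cells express as well, was the marker that was called (-2.11, adjusted p = 0.0264). The part of plasma cells in the values of the members was not tested. Each plasma cell marker was higher on WT replicate 1 than on WT replicate 2, by 0.219 to 0.603. The mean log2 level of the 15 chaperones was 10.14 on WT replicate 1 and 10.01 on WT replicate 2, and that of the 7 degradation genes 9.54 and 9.43, in the same order. The mean of the 7 sensors was 9.19 and 9.22, and that of the 12 ATF4 targets 7.69 and 7.81. In each of these lists the order rests on 1 gene. It is Eif2ak1 for the sensors, at 9.22 and 9.56 on the WT arrays, and Asns for the ATF4 targets, at 6.44 and 7.91. For the 8 members that fell the mean was 9.89 and 9.86, with differences between the WT arrays of 0.0097 to 0.278 in size. These differences ran in both directions, as with Herpud1 at 10.74 and 10.47 and Eif2ak3 at 10.60 and 10.79. The call itself favours genes whose arrays differ little within a genotype, so the closeness of this mean follows in part from the choice.

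B cell markers were 0.917 to 2.16 higher on WT replicate 1 than on WT replicate 2, and their summed intensity was 9579 and 3361 in WT and 2791 and 4459 in IfitmF-/- cells. None of the 10 was called by limma (0 at an unadjusted p under 0.05), and 2 did not overlap. Erythroid markers summed to 3173 and 5436 in WT and 8911 and 8161 in IfitmF-/- cells, with 4 of 5 higher without overlap. Platelet markers summed to 3656 and 2399 in WT and 4648 and 10499 in IfitmF-/- cells, with 2 of 5 higher without overlap. Sums for myeloid markers were 5867 and 3458 in WT and 3830 and 7052 in IfitmF-/- cells, and for NK markers 2913 and 2332 in WT and 2204 and 2065 in IfitmF-/- cells. The 7 NK markers did not share a direction. By limma Nkg7 (-0.89) and Eomes (-0.79) were called lower, while 3 markers (Ncr1, Klrb1c and Klrd1) lay higher without overlap and 2 overlapped. CD8 markers (504 and 341 in WT, 435 and 425 in IfitmF-/- cells) and neutrophil markers (229 and 228 in WT, 339 and 394 in IfitmF-/- cells) had low sums over 2 and 6 genes. Of the 6 neutrophil markers 4 lay higher without overlap and 2 overlapped, and Retnlg was called higher by limma (1.83, adjusted p = 0.0136). CD4 T cell markers summed to 19919 and 20538 in WT and 22032 and 21537 in IfitmF-/- cells, and among the 7 genes Cd3d and Cd3g rose and Cd28 fell by 0.74. The part of these cells in the values of the members was likewise not tested.

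**Figure D4:**
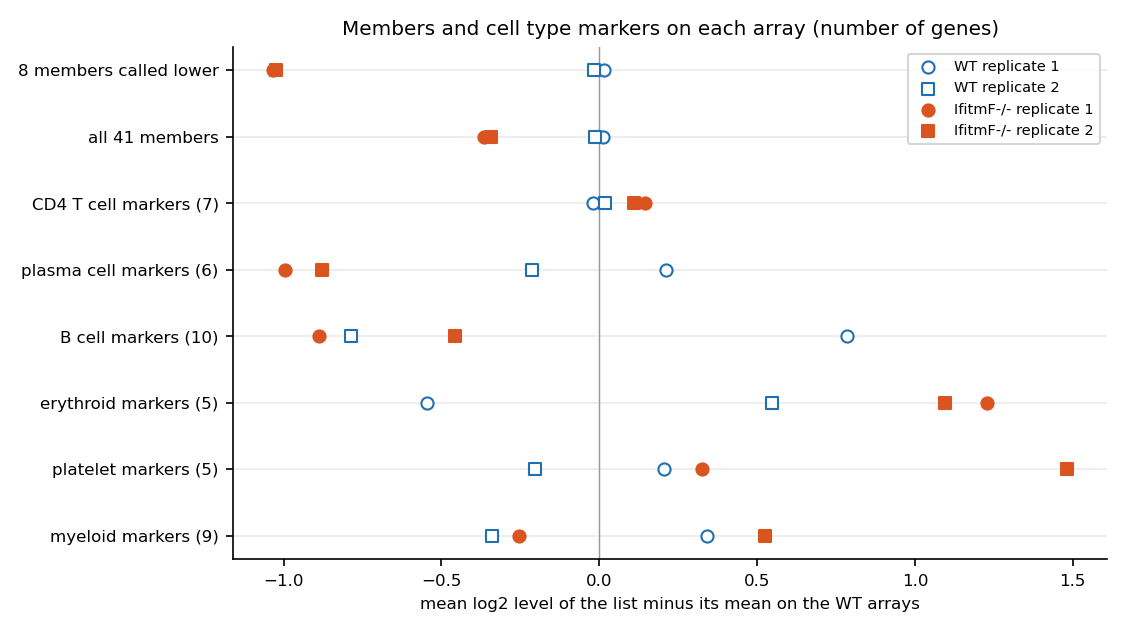
Mean log2 level of each list on each array minus its mean on the WT arrays (x axis; open blue symbols WT, filled orange symbols IfitmF-/-, circles replicate 1 and squares replicate 2). The means of the 8 members called lower lie close together within a genotype, which the call itself favours. Those of plasma cell markers lie lower on both IfitmF-/- arrays, and those of B cell and erythroid markers on the WT arrays lie far apart.

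For each of the 9 called members the genotypes did not overlap, so leaving out any 1 array could not change its direction. The values without 1 array show only how far the size of the change moved. Without an array the change of Eif2ak3 ran from -2.62 to -2.43 and that of Xbp1 from -1.60 to -1.56, with unadjusted p of at most 0.000143 and 0.000458. Hspa5 ran from -0.96 to -0.90 and Ern1 from -0.88 to -0.77. Herpud1 moved most among the called members, from -0.89 to -0.61, the value -0.61 being without WT replicate 1. Derl2 stayed between 0.69 and 0.73. Adjusted p values of these 6 genes without an array were 0.0681 to 0.153, since 1 residual degree of freedom then remains per probe set.

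**Figure D5:**
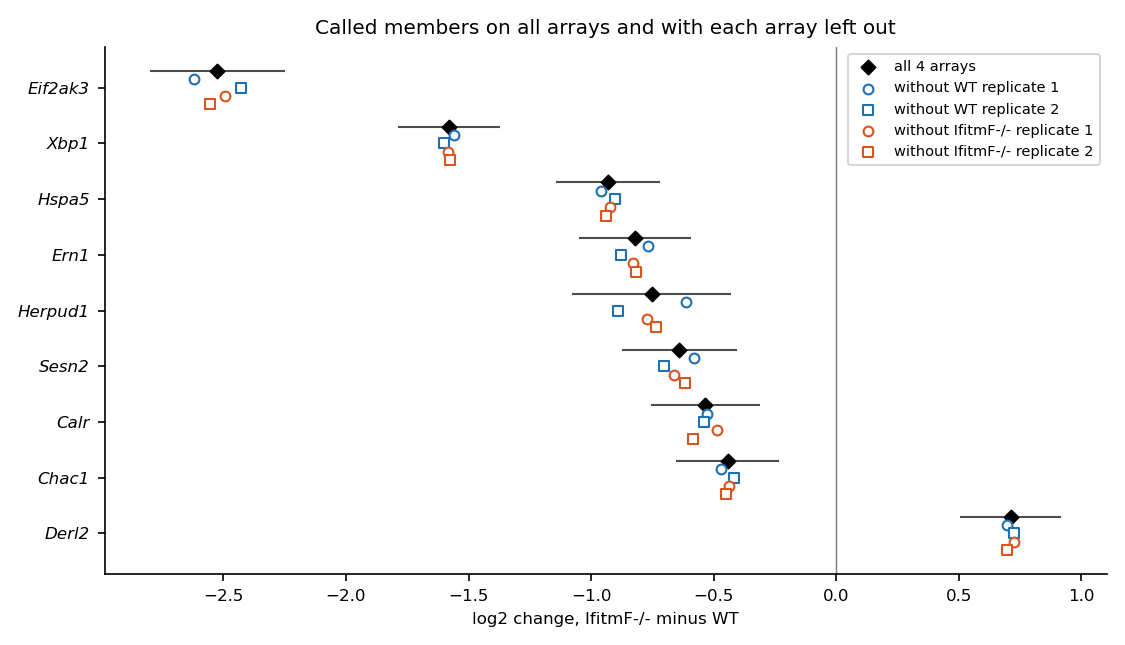
Log2 change of the 9 called members (x axis, IfitmF-/- minus WT) on all 4 arrays (black diamond, with its 95% interval) and with each array left out (open symbols). All values of a gene lie on the same side of 0, as they must where the genotypes do not overlap. The values of Herpud1 are spread most.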

How the data were processed

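Expression in 2 WT and 2 IfitmF-/- preparations was measured on Affymetrix Mouse Gene 1.0 ST arrays. The authors deposited 1 linear intensity per probe set and array, made by RMA, which corrects background, forces all arrays to 1 distribution and so removes any shift shared by all genes. RMA and affy stand in the submitters' processing notes, and neither a version nor a probe set definition is given in the sources used here. Median intensities were 74.8 to 78.1. The number of arrays limits the precision. Here log2 intensities of all 34760 probe sets were fitted with limma 3.58.1 in R 4.3.3 (lmFit, eBayes), and p values were adjusted by Benjamini and Hochberg's method across every probe set. Of these, 21640 have 1 gene in the platform annotation, 1321 several and 11799 none listed, which left 19938 genes. Per the study, replicates were separate purifications. The members and lists were chosen with earlier results of these data known. All 41 members were named; full values were given for those called and for the largest uncalled change of each role, with up to 4 called genes per further list. The fit was tested on simulated data. The 16 alternatives concerned the variance model, scaling, choice of probe sets, replicate blocks, the test, the threshold and single arrays.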

Additional observations from a re-analysis of the deposited data

How the results depend on the processing

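With 2 arrays per genotype, small differences could not be detected, and signal near that of deleted genes bounds Chac1. The main counts were 9 members, 2 chaperones, 2 degradation genes, 3 sensors, 2 ATF4 targets, 2 members past the methods' filter, 11 further pathway genes and 2930 probe sets. All 9 called members kept their direction under the 16 alternatives, which for the fits without 1 array follows from their lack of overlap. Of 656 values 12 reversed, none of them of a called member. Renewed quantile normalization left 1 ATF4 target called, and median centring turned the split of 8 lower and 1 higher into 7 and 2. Without dim probe sets, with probe sets of 1 gene and with the mean of a gene's probe sets, in each case 17 members were called (4 chaperones, 4 degradation genes and 6 ATF4 targets). Fewer features are tested there, and the shares of all features called are not given here. At an adjusted p under 0.1, 20 members were called, with 5 chaperones, 4 degradation genes, 5 sensors, 6 ATF4 targets, 17 further pathway genes and 5446 probe sets. The methods' t-test called 21 members without adjustment (7 chaperones, 5 degradation genes, 5 ATF4 targets), 20 further genes and 6811 probe sets. After Benjamini-Hochberg adjustment it called 0 members in every role and past the filter, 0 further genes and 4 probe sets. The labels give same-numbered arrays a shared number and nothing further, so whether they were handled together is not known. The correlation of their deviations was -0.1238, which with 2 arrays per genotype does not settle this. With the replicate block 0 members were called in any role or past the filter, as were 0 further genes and 0 probe sets; 1 residual degree of freedom remains there. With the crossed replicate block, chosen after seeing the data, 3 members (1 chaperone, 0 degradation genes, 0 ATF4 targets), 5 further genes and 975 probe sets were called. Without any 1 array each of these counts was 0 to 0. The reversed values, near 0 except for Asns, were -0.021 for Canx and -0.0078 for Cebpg after renewed quantile normalization and 0.0054 for Ddit3 after median centring. When each array was left out in turn, values on both sides of 0 were found for 7 uncalled members, from -0.021 to 0.088 for Pdia3, -0.29 to 0.077 for Pdia4, -0.033 to 0.054 for Canx, -0.19 to 0.060 for Edem2, -0.10 to 0.030 for Ddit3, -0.47 to 0.9997 for Asns and -0.039 to 0.055 for Cebpg. Without WT replicate 1 it was Pdia4, Edem2, Ddit3 (0.013) and Asns that turned. The cause of these shifts was not tested.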
